A study of Mus musculus with 201 samples.

Results

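The genes of synaptic vesicle release encode the proteins that dock, prime, fuse and recover the neurotransmitter vesicles of nerve terminals. They were followed here through 44 member genes in the hippocampus of 100 mouse strains. Members were taken by gene symbol, and every probe set that the array annotation gave to one of these symbols alone was used. This gave 115 probe sets of the 45037 tested, and 44 genes of the 18193 symbols on the array. A probe set is a group of short oligonucleotides that reads a stretch of 1 transcript, and 9 of the genes had 1 probe set while 35 had several, up to 7 for Sypl.

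The samples were 201 arrays of hippocampus, each hybridized with RNA pooled from 1 to 4 mice of mean age 41 to 196 days (median 62). The BXD panel held 68 recombinant inbred strains, bred from C57BL/6J and DBA/2J, on 134 arrays of mice aged 54 to 196 days. The CXB panel held 13 recombinant inbred strains, bred from BALB/cByJ and C57BL/6ByJ, on 27 arrays of mice aged 41 to 80 days. The contrasts between parents used DBA/2J (2 arrays, both of females, aged 63 and 64 days) against C57BL/6J (3 arrays, 2 of males and 1 of females, aged 65 to 71 days). They also used the BALB/c substrains BALB/cJ and BALB/cByJ (4 arrays, 51 to 83 days) against C57BL/6J and C57BL/6ByJ (5 arrays, 55 to 71 days). The 4 wild-derived inbred strains CAST/EiJ, PWD/PhJ, PWK/PhJ and WSB/EiJ were on 7 arrays (58 to 83 days) and the 13 classical inbred strains on 27 arrays (51 to 96 days). The classical strains were 129S1/SvImJ, A/J, AKR/J, C3H/HeJ, KK/HIJ, LG/J, NOD/LtJ and NZO/HlLtJ, with DBA/2J and the BALB/c and C57BL/6 substrains named above. The arrays of the parental contrasts thus also served in the classical comparisons. The F1 hybrids of both directions, B6D2F1 and D2B6F1, had 6 arrays (63 to 72 days). No mouse carried a transgene or received a treatment according to the labels, 101 arrays were of females and 99 of males, and 1 was of both sexes.

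Vesicle release runs as a cycle. Vesicles are held in clusters by synapsins and carry the Rab3 GTPases. They are tethered and primed at the active zone by RIM, Munc13, bassoon and piccolo proteins. They fuse when the SNARE proteins on vesicle and plasma membrane zip together under the control of complexins and of calcium-binding synaptotagmins. The SNARE complex is then taken apart by NSF with its SNAP adaptors, and the vesicle membrane is recovered by clathrin-mediated endocytosis, in which amphiphysin, dynamin, AP180 and synaptojanin take part. In the hippocampus these proteins are known from excitatory pyramidal and granule cell terminals, including the large mossy fibre terminals, and from inhibitory interneurons.

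Values are PDNN scores, a log-like summary of probe brightness. No label or header used here names the base of that scale. Differences are therefore given in PDNN units and no fold change is given. Levels of different probe sets were compared only to name the brightest of a gene and to set means against 8 units or the array median. They are not read as relative amounts of transcripts. Sequence differences between strains at the probes were not examined, and their part in any strain difference was not tested. Of pyramidal neuron markers all 8 that were measured had a mean of 8 units or more, as had 6 of 8 dentate granule neuron markers, where the median over all probe sets was 7.86. Member probe sets had means of 7.29 to 11.28 units, 91 of the 115 had a mean of 8 or more, and so had the brightest probe set of 42 genes. The exceptions were Sv2c at 7.56 and Unc13c at 7.93. In bulk tissue, fewer cells of a type and less RNA per cell cannot be told apart. The labels do not say that arrays of a strain came from separate litters or cohorts, so p-values measure the spread between these pools.

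Before the results, 7 arrays have file headers that disagree with their labels: BXD13 replicate 2 in batch, BXD14 replicates 1 and 2 and D2B6F1 replicate 1 in strain, BXD9 replicate 2 and KK/HIJ replicate 2 in sex, and PWD/PhJ replicate 1 in strain and sex. Labels were kept, BXD9 replicate 2, which is labelled as both sexes, was left out of the fit, and the counts without the 7 arrays are given in the closing section. The labelled 3'/5' ratio of beta-actin (ACTB), a sign of how much of each transcript's 5' side was copied, ran from 0.9 to 4.65 with a median of 1.34.

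RefSeq promoters, from 250 bases before to 50 bases after the annotated start (assembly GRCm38.p6), were at hand for 33 of the 44 genes, 45 promoters in all. The promoters of Synj1, Unc13c and Rims3 are shown because, among members with a promoter in the table, they had the highest BXD intraclass correlations of those whose calls also held in RMA values. Synj1 encodes synaptojanin 1, the lipid phosphatase that helps to shed clathrin coats from recovered vesicles, Unc13c encodes Munc13-3, a vesicle priming factor, and Rims3 encodes RIM3, a short RIM protein of the active zone. Capitals mark the GC box GGGCGG on either strand, a motif bound by SP1-family factors. The 2 Synj1 windows overlap.
Synj1 promoter at chr16:91011259-91011558, minus strand: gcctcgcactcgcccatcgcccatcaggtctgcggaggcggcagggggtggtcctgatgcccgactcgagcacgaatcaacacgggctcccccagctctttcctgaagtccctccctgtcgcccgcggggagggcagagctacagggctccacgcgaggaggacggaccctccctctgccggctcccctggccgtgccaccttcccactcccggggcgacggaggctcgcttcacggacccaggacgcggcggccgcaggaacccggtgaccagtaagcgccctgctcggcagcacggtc
Synj1 promoter at chr16:91011046-91011345, minus strand: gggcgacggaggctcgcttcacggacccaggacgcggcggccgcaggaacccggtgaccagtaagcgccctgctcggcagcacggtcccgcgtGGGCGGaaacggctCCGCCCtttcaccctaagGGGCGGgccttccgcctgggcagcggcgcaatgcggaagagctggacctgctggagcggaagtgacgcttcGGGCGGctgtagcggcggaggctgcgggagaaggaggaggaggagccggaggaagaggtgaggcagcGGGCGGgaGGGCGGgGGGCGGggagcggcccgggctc
Unc13c promoter at chr9:73968988-73969287, minus strand: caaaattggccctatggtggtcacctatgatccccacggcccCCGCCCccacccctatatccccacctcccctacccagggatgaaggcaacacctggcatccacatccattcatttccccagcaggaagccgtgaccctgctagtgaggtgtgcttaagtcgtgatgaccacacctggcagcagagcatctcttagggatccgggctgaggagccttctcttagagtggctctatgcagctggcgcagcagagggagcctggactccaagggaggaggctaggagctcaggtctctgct
Rims3 promoter at chr4:120854549-120854848, plus strand: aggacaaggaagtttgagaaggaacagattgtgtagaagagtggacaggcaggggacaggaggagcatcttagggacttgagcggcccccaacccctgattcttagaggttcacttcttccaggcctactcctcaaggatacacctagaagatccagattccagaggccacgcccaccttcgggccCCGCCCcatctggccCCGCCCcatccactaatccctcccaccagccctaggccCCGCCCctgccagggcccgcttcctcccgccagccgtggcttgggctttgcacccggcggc

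The GC box was in 29 of the 45 member promoters (64.44%), against 35.66% of the 32851 promoters of the same length in the table. The EGR site GCGGGGGCG was in 4 (8.89%, against 2.91%), those of Cplx1, Stxbp5, Syn2 and Syngr1. The cyclic AMP response element TGACGTCA was in 1, that of Syn1 (2.22%, against 1.79%), and the TATA box TATAAA was in 3 (6.67%, against 13.62%), of Rab3b and Sv2b. Each motif was searched on both strands, and a GC box can overlap an EGR site. These matches are descriptions, and nothing here measured binding.

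The first comparison asked which release genes differ between strains of the BXD panel. A strain effect was called for 16 of 115 member probe sets (13.9%), where 6.95% of all probe sets were called (limma's moderated F-test with Benjamini-Hochberg adjustment over 45037 probe sets, adjusted p under 0.05). The 16 probe sets belonged to 13 genes, but the brightest probe set was among them for only 6 of 44 (background among brightest probe sets 7.59%), namely Syt17, Unc13c, Rims3, Synpr, Vamp1 and Rims2. Of 210 probe sets of 80 other presynaptic genes, 11 (5.24%) were called. Shares were higher than the members' for markers of choroid plexus (68.4% of 19), endothelium (46.2% of 13), microglia (26.7% of 15), pyramidal neurons (22.2% of 9) and interneurons (17.6% of 17). With the choroid plexus marker mean as a covariate 14 member probe sets were called. The part of the endothelium, microglia, pyramidal neuron and interneuron markers was not tested. The intraclass correlation, the share of variance that lies between strains, ran from 0.319 to 0.735 for the called probe sets. For the 99 that were not called it was 0.291 at the highest and 0 for 54. Its median over members was 0.00822, and over all probe sets 0.

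**Figure D1:**
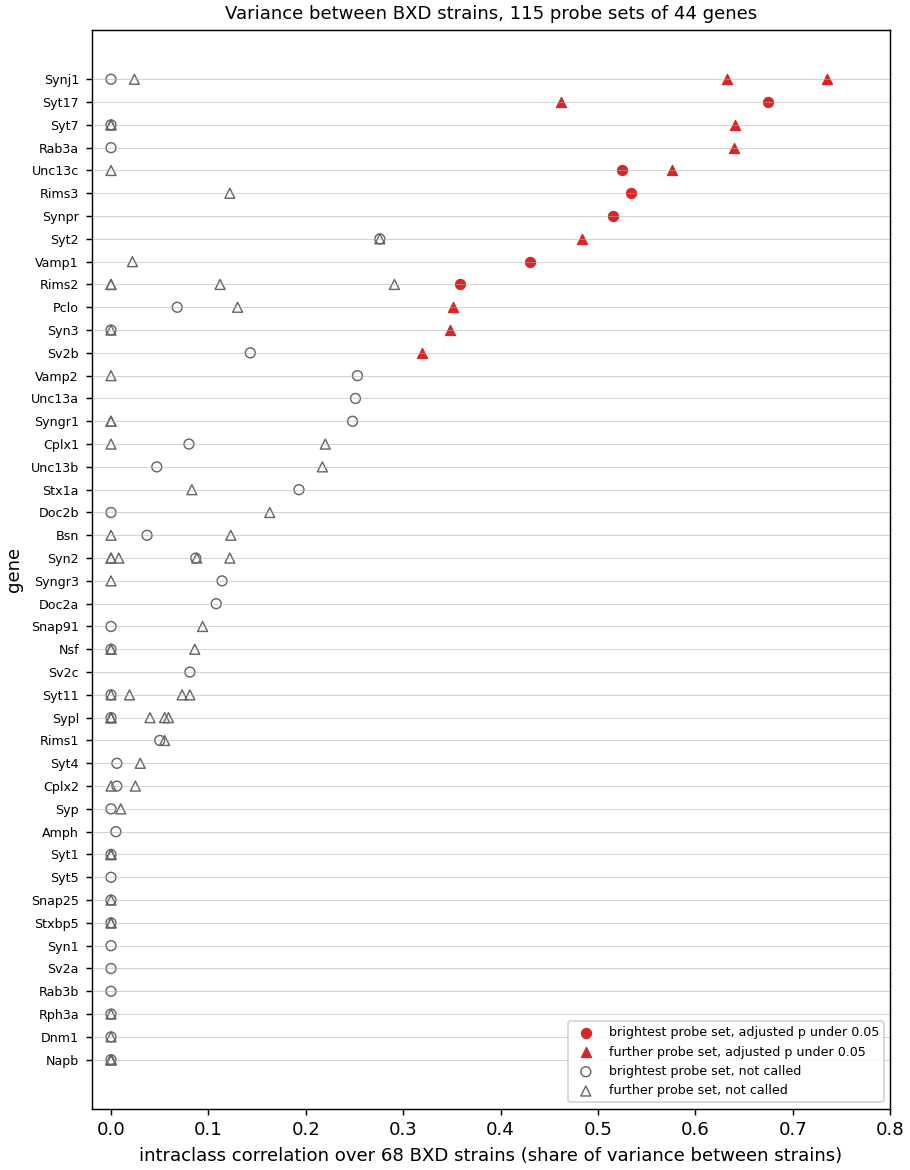
Intraclass correlation over 68 BXD strains (x axis, share of variance between strains) for each of 115 probe sets, by gene (y axis). Filled red symbols mark the 16 called probe sets, circles the brightest probe set of a gene and triangles the others. Synj1 has called probe sets at 0.735 and 0.632 while its brightest stands at 0.

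By role, the called genes were 4 of 8 of the active zone and priming group (Unc13c, Rims3, Rims2 and Pclo) and 3 of 7 synaptotagmins (Syt17, Syt7 and Syt2). They were 2 of 8 vesicle membrane proteins (Synpr and Sv2b) and 1 of 3 synapsins (Syn3). They were also 1 of 4 endocytosis genes (Synj1) and 1 of 5 in the group of Rab3, rabphilin and Doc2 proteins (Rab3a). Of the 9 SNARE proteins and their helpers it was 1, Vamp1. Over the whole array 11.1% of genes had any called probe set, and members had more probe sets per gene than the array as a whole. By probe set the counts were 5 of 21 for the active zone group, 4 of 21 for synaptotagmins and 1 of 27 for the SNARE group.

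Synj1 had the highest intraclass correlation of the members. Its probe set 1436334_at ranged over BXD strain means from 8.87 units in BXD87 through a median of 9.48 to 9.85 in BXD55. The arrays of BXD87 read 8.62 and 9.12, and the single array of BXD55 read 9.85. In the ordered strain means 28 strains lay at or below 9.27 and 40 at or above 9.37, and this step of 0.10 was the widest with at least 6 strains on each side. The second widest was 0.07 and the residual SD between arrays was 0.152, above the step, and a break in the series was not tested. The intraclass correlation was 0.735 (limma's F-test, adjusted p = 2.6e-14). The parents averaged 9.25 in DBA/2J and 9.49 in C57BL/6J, so that 26 BXD strains lay below both parents, 10 between them and 32 above both. The F1 hybrids averaged 9.32 in B6D2F1 and 9.34 in D2B6F1.

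A second Synj1 probe set, 1436333_a_at, ranged from 9.14 in BXD48 through a median of 9.54 to 9.88 in BXD31, with an intraclass correlation of 0.632 (adjusted p = 9.2e-10). Across the 28 strains below the step the 2 probe sets had Pearson's r of 0.75 and Spearman's rho of 0.63 (permutation p = 1e-05 and 0.00031, adjusted over the 2 sides 1e-05 and 0.00031). Across the 40 strains above it they had r of 0.86 and rho of 0.81 (permutation p = 1e-05 for each, the smallest that the permutations can give, adjusted 1e-05 and 2e-05). Without the 2 strains farthest from the median r was 0.62 below and 0.83 above. The probe sets were read on the same arrays, so array error is shared. The brightest Synj1 probe set, 1454961_at, had an intraclass correlation of 0, and the dim 1439997_at 0.024, so the strain difference was seen by 2 of the 4 Synj1 probe sets.

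Syt17 encodes a member of the synaptotagmin family of C2-domain proteins. Its brightest probe set 1433909_at ranged from 8.68 in BXD93, where both arrays read 8.68, through a median of 8.93 to 9.28 in BXD2, whose arrays read 9.36 and 9.20. The intraclass correlation was 0.675 (limma's F-test, adjusted p = 1.6e-11). DBA/2J averaged 8.87 and C57BL/6J 9.05, with 27 BXD strains below both and 20 above both. Its other probe set 1422955_at ranged from 8.32 in BXD55 through 8.69 to 8.96 in BXD31 and was also called (0.462, adjusted p = 1.5e-04). Over the 68 strains the Syt17 probe sets had r of 0.80 and rho of 0.79 (permutation p = 1e-05 for each, adjusted over 3 genes 1e-05). Without the 2 strains farthest from the median r was 0.82. Both were picked for their BXD strain effect and read on the same arrays, so this agreement cannot test a strain difference.

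Syt7, a slow calcium sensor of fusion, was called at 1439633_at, which ranged from 8.65 in BXD94 through 8.88 to 9.24 in BXD45, whose arrays read 9.32 and 9.16. The intraclass correlation was 0.641 (adjusted p = 1.7e-08), and 34 strains lay between the DBA/2J mean of 8.79 and the C57BL/6J mean of 8.99. None of its other 3 probe sets was called.

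Rab3a, the main vesicle GTPase of the brain, was called at 1459980_x_at, which ranged from 9.72 in BXD42 through 9.90 to 10.10 in BXD62 (0.640, adjusted p = 1.7e-09). DBA/2J averaged 9.84 and C57BL/6J 10.05, and 51 BXD strains lay between them. The suffix marks probes that can match other transcripts too. The call was lost in RMA values (0.000, adjusted p = 1), in MAS5 values (0.090, adjusted p = 0.841), under quantile normalization (0.252, adjusted p = 0.104) and with arrays rescaled (0.249, adjusted p = 0.126), and the brightest probe set 1422589_at was not called.

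Unc13c was called at 2 probe sets. At 1437319_at strain means ranged from 7.53 in BXD43 through 7.67 to 8.09 in BXD45, whose arrays read 8.00 and 8.17 (0.576, adjusted p = 1.7e-06). At the brightest, 1455304_at, they ranged from 7.60 in BXD48a through 7.93 to 8.46 in BXD45, whose arrays read 8.57 and 8.35 (0.525, adjusted p = 4.4e-06). A few strains stood high: at 1437319_at BXD45 and BXD55 averaged 8.09 and 8.08, and the next strain, BXD85, 7.86. DBA/2J and C57BL/6J both averaged 7.73 at this probe set, and 53 BXD strains lay below both. Over the 68 strains the probe sets had r of 0.85 and rho of 0.79 (permutation p = 1e-05 for each, adjusted over 3 genes 1e-05). Without the 2 strains farthest from the median r was 0.82. As for Syt17, both were picked for their strain effect and share arrays, so this agreement cannot test a strain difference.

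Rims3 showed the same 2 strains on top. Its brightest probe set 1435971_at ranged from 8.26 in BXD23 through a median of 8.40 to 8.95 in BXD45, whose arrays read 9.08 and 8.82, and BXD55 had 8.89. The intraclass correlation was 0.534 (limma's F-test, adjusted p = 2.5e-05). DBA/2J averaged 8.35 and C57BL/6J 8.59, with 40 BXD strains between them.

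BXD45 was the highest strain at 4 of the 16 called probe sets and BXD55 at 3, and BXD55 was the lowest at 1. How often these strains were at the ends over all probe sets called was not counted. The ACTB ratios were 1.41 and 1.63 in the BXD45 arrays and 1.91 in the BXD55 array, against a BXD median of 1.31. A fit with this ratio as a covariate was among the alternatives. Vamp1, both Synj1 probe sets, 1433909_at of Syt17 and 1455304_at of Unc13c kept their calls in every alternative that gave them a value. The other called probe sets lost theirs in 1 to 7, and the levels of BXD45 and BXD55 with the covariate were not read out. Without both strains, a setting chosen after seeing the data, 15 member probe sets were called. Rims2 and Pclo lost their calls, and Rims3 (0.453), Unc13c (0.471 and 0.493) and Syt7 (0.610) kept their calls.

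**Figure D2:**
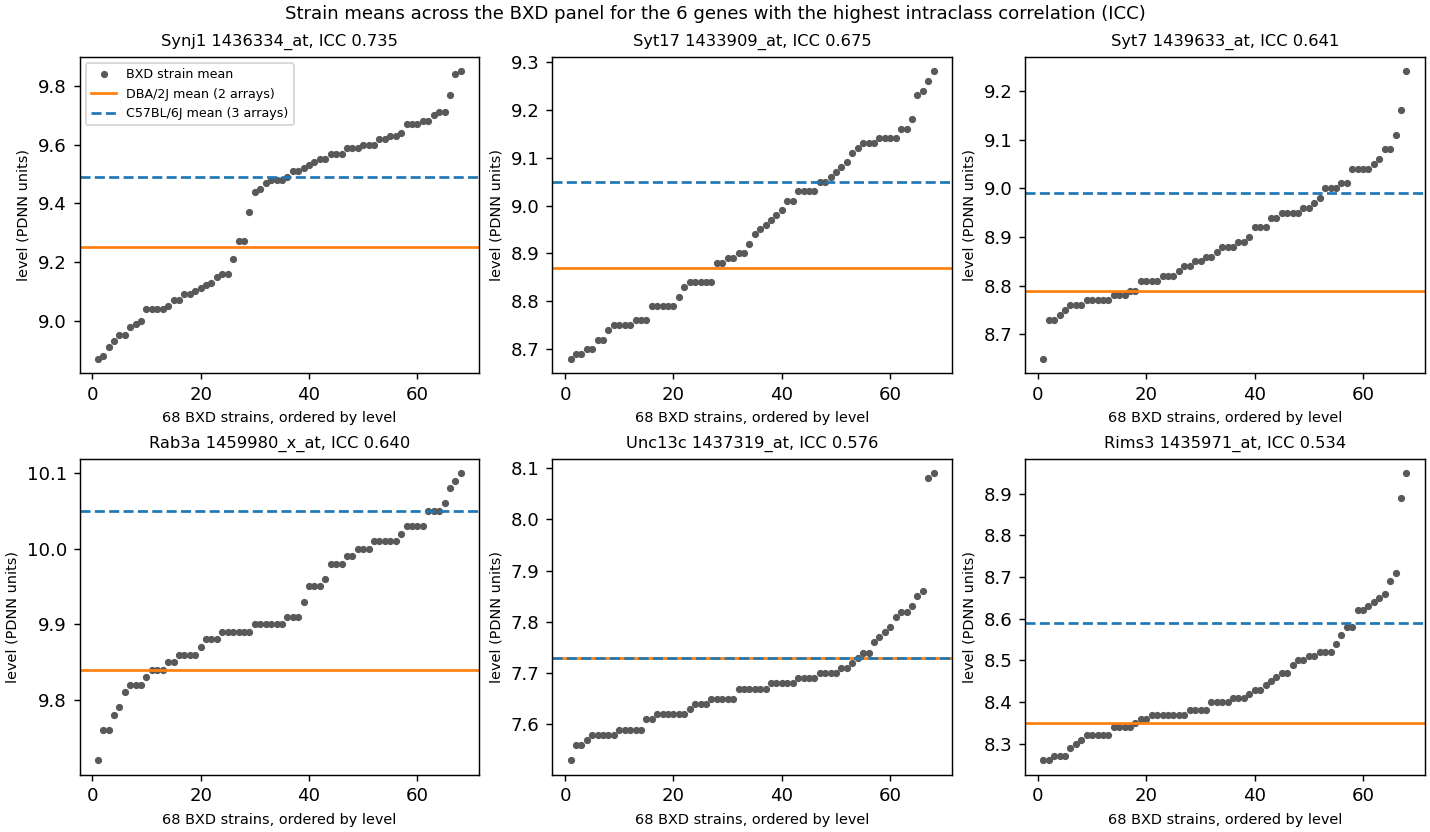
Strain means (y axis, PDNN units) of 68 BXD strains in order of level (x axis) for the 6 genes with the highest intraclass correlation, through their highest probe set, with the means of DBA/2J (solid) and C57BL/6J (dashed) as lines. Synj1 has its widest step between 9.27 and 9.37, and Unc13c and Rims3 have BXD45 and BXD55 on top.

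The other called members had intraclass correlations of 0.319 to 0.515. Synpr, synaptoporin of mossy fibre vesicles, ranged from 9.45 in BXD9 through 9.89 to 10.20 in BXD70 (0.515, adjusted p = 3.6e-05), with the BXD9 value resting on 1 array. More BXD strains lay above both parents, 35, than between them, 25, at parental means of 9.63 in DBA/2J and 9.88 in C57BL/6J. Vamp1, a vesicle SNARE, ranged from 9.13 in BXD11 through 9.30 to 9.58 in BXD55 (0.430, adjusted p = 0.00285). Rims2, a RIM of the active zone, ranged from 8.75 in BXD89 through 8.92 to 9.23 in BXD55 (0.358, adjusted p = 0.0224), and its call was lost without the batch term (0.179, adjusted p = 0.629) and without BXD45 and BXD55 (0.331, adjusted p = 0.0671).

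The members called only at a dimmer probe set were Syt2, a fast calcium sensor (1420418_at, 0.484), Pclo, the active zone scaffold piccolo (1455373_at, 0.351), Syn3, a synapsin (1435311_s_at, 0.348), and Sv2b, a vesicle glycoprotein (1435687_at, 0.319). Their adjusted p-values were 0.00386, 0.0301, 0.00524 and 0.0401 (limma's F-test). All 4 lost the call in RMA values and in MAS5 values. In MAS5 values 5 member probe sets were called in all, both of Synj1, 1433909_at of Syt17, 1455304_at of Unc13c and 1421863_at of Vamp1.

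The SD of BXD strain means had a median of 0.090 units for member probe sets, 0.085 for their brightest probe sets and 0.061 for all probe sets. Probe sets of like level were not compared, and 54 member probe sets had an intraclass correlation of 0. This SD takes in spread between arrays as well as between strains. Among brightest member probe sets that averaged at least 8 units, it was lowest for Stxbp5 (0.054 units), a syntaxin-binding inhibitor of fusion, and for Snap25 (0.064), a SNARE of the plasma membrane. It was 0.068 for the vesicle glycoprotein Sv2a, 0.069 for Syt11, 0.071 for the priming factor Unc13b and 0.072 for Syt1, the main calcium sensor. It was 0.073 for Cplx1, a complexin, and 0.074 for Napb, beta-SNAP. Only Stxbp5 of these 8 lay below the median of all probe sets.

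The CXB panel addressed the same question with 13 strains. A strain effect was called for 6 of 115 member probe sets (5.22%), where 4.20% of all probe sets were called. The called genes were Syt7, Amph, Rab3a, Syt4, Rims2 and Syn3, the brightest probe set being called for 2, Amph and Syt4 (background 4.58%). The other presynaptic genes had 5 of 210.

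Syt7 had the highest value at 1439633_at, the probe set that was also called in the BXD panel, with strain means from 8.68 in CXB13 through 8.79 to 9.15 in CXB2 (intraclass correlation 0.753, limma's F-test, adjusted p = 2.9e-07). Amph, amphiphysin of endocytosis, ranged from 9.38 in CXB8 through 9.64 to 10.02 in CXB2 (0.698, adjusted p = 1.8e-05). Syt4, a synaptotagmin, ranged from 8.94 in CXB12 through 9.10 to 9.50 in CXB2 (0.584, adjusted p = 0.00261). CXB2 was thus on top in each case.

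Rims2 was called at 1422809_at, with strain means from 8.30 in CXB9 through 8.57 to 8.89 in CXB2 (0.580, adjusted p = 0.00341). Rab3a at 1459980_x_at ranged from 9.80 through 9.98 to 10.01 (0.622, adjusted p = 0.00124), and Syn3 at 1435311_s_at from 7.97 through 8.09 to 8.43 (0.532, adjusted p = 0.0154). CXB2 was the highest strain at all 6 called probe sets, and how often it was highest over all probe sets called was not counted. Its arrays had ACTB ratios of 2.05 and 1.38, against a CXB median of 1.32. A fit with this ratio as a covariate was among the alternatives, and Amph kept its call in all 35 of them. The other called probe sets lost theirs in 1 to 5 alternatives, and the level of CXB2 with the covariate was not read out. Without CXB2 3 member probe sets were called, and of the 6 those of Amph (0.603), Syt7 (0.665) and Rab3a (0.631) kept their calls while Syt4 (0.426, adjusted p = 0.174), Rims2 (0.359, adjusted p = 0.343) and Syn3 (0.138, adjusted p = 0.868) did not. With arrays of the CXB panel alone in the fit, 2 were called.

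Among the 13 classical inbred strains a strain effect was called for 49 of 115 member probe sets (42.6%), where 28.0% of all probe sets and 33.3% of those of the other presynaptic genes were called. Markers of pyramidal neurons (77.8%), oligodendrocytes and myelin (75.9%), astrocytes (73.5%), thalamus (58.1%), endothelium (53.8%), dentate granule neurons (50%) and microglia (46.7%) had higher shares than the members, and with the thalamus marker mean as a covariate 53 member probe sets were called. The part of the pyramidal neuron, myelin, astrocyte, endothelium, dentate and microglia markers was not tested. The 49 belonged to 31 genes, where 40.2% of all genes had any called probe set. Their intraclass correlations were 0.360 to 0.887. With arrays of these strains alone in the fit the count was 8. The brightest probe set passed for 21 genes (background 31.8%). These were Rab3b and Rph3a of the Rab3 group with Doc2b, the synaptotagmins Syt1, Syt2, Syt4 and Syt17, and Bsn, Rims1, Rims2 and Unc13c of the active zone. They were also Synpr, Sv2a, Sypl, Syngr1 and Syngr3 of the vesicle membrane, the synapsins Syn1 and Syn2, Cplx2 and Vamp1 of the SNARE group, and Amph. Only dimmer probe sets passed for Napb, Pclo, Rab3a, Snap25, Snap91, Stxbp5, Syn3, Synj1, Syt7 and Syt11.

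Several of these profiles held a gap between sets of classical strains. Cplx2 encodes complexin 2, and at 1421477_at the strains BALB/cByJ, A/J, C3H/HeJ and BALB/cJ averaged 10.53, 10.48, 10.47 and 10.36 units, while the other 9 lay between 9.38 in KK/HIJ and 9.76 in NZO/HlLtJ (intraclass correlation 0.771, limma's F-test, adjusted p = 8.0e-07). Rab3b, a Rab3 GTPase, had 8.60 to 8.72 in AKR/J, KK/HIJ, C57BL/6J, DBA/2J and C57BL/6ByJ, and 8.13 to 8.34 in the other 8 (0.760, adjusted p = 1.5e-08). Napb at 1423172_at had 9.74 in NOD/LtJ and 10.30 to 10.52 in the other 12 (0.767, adjusted p = 2.0e-08).

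The highest intraclass correlation was that of Syt11, a synaptotagmin without calcium binding, at 1456464_x_at (0.887, limma's F-test, adjusted p = 1.3e-15). As for Rab3a, the suffix of this probe set marks probes that can match other transcripts too. KK/HIJ had 8.87 and the other 12 strains 9.32 to 9.87. Syt7 at 1439633_at stood highest after it (0.809, adjusted p = 3.3e-10), from 8.47 in AKR/J to 9.24 in NZO/HlLtJ. The next were Syt4, from 8.94 in AKR/J to 9.67 in NOD/LtJ (0.772, adjusted p = 1.4e-08), then Cplx2, Napb and Rab3b as given above, and Synpr, from 9.63 in DBA/2J to 10.44 in LG/J (0.760, adjusted p = 6.1e-08). AKR/J was the lowest strain at 10 of the 49 probe sets, and 129S1/SvImJ and C57BL/6ByJ at 7 each. LG/J and NOD/LtJ were each the highest at 9. NOD/LtJ was also the lowest at 6, and its arrays had ACTB ratios of 2.89 and 3.09, against a classical median of 1.67. How often these strains were at the ends over all probe sets called was not counted.

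The parents of the BXD panel differed at 11 of 115 member probe sets (9.57%), where 7.24% of all probe sets were called. DBA/2J was higher than C57BL/6J at 5 (background 4.61%) and lower at 6 (background 2.63%). The median difference was -0.0398 units over members and -0.0167 over all probe sets. The 11 probe sets belonged to 10 genes, where 10.4% of all genes had any called probe set. Of the 10 genes, the brightest probe set was called for 5 (background 5.72%), namely Syp, Rph3a, Syt17, Syngr3 and Vamp1, all lower in DBA/2J. Of the 210 probe sets of other presynaptic genes, 9 were higher and 8 lower.

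Higher in DBA/2J were 2 probe sets of Napb, whose product helps NSF to take SNARE complexes apart. The probe set 1427470_s_at read 9.96 and 10.56 in the DBA/2J arrays, and 9.60, 9.47 and 9.79 in the C57BL/6J arrays, a difference of 0.73 ± 0.23 (SE, limma's moderated test, adjusted p = 0.0334). The probe set 1452444_at read 9.42 and 9.93 in DBA/2J, and 9.01, 8.88 and 9.22 in C57BL/6J (0.71 ± 0.23, adjusted p = 0.0423). The groups did not overlap at either, and DBA/2J replicate 2 was the highest array. The brightest Napb probe set 1423173_at differed by 0.20 ± 0.10 (adjusted p = 0.298) and 1423172_at by -0.05 ± 0.09 (adjusted p = 0.882).

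Syn2, a synapsin, read 9.68 and 9.70 in DBA/2J at 1449030_at, and 9.22, 8.95 and 9.26 in C57BL/6J (0.69 ± 0.22, adjusted p = 0.0386). Syt1 at 1438282_at read 8.86 and 8.86 in DBA/2J, and 8.64, 8.42 and 8.48 in C57BL/6J (0.40 ± 0.09, adjusted p = 0.00143). Rims1, an active zone scaffold, read 9.17 and 9.36 in DBA/2J at 1438305_at, and 9.06, 8.94 and 9.04 in C57BL/6J (0.38 ± 0.10, adjusted p = 0.00488). For all 3 genes both DBA/2J arrays lay above every C57BL/6J array, while the brightest probe sets differed by 0.00 ± 0.10, -0.10 ± 0.09 and -0.07 ± 0.10 units.

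Lower in DBA/2J was Syp, the abundant vesicle protein synaptophysin, which read 10.21 and 10.02 in DBA/2J, and 10.35, 10.76 and 10.66 in C57BL/6J (-0.54 ± 0.18, adjusted p = 0.0417). Synj1 at 1436333_a_at read 9.31 and 9.26 in DBA/2J, and 9.52, 9.67 and 9.55 in C57BL/6J (-0.38 ± 0.11, adjusted p = 0.0195). Vamp1 read 9.30 and 9.21 in DBA/2J, and 9.36, 9.52 and 9.35 in C57BL/6J (-0.22 ± 0.05, adjusted p = 0.00305). None of these groups overlapped, and the 2 Vamp1 groups came close, at 9.30 and 9.35.

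Rph3a, rabphilin, a Rab3 effector, read 9.59 and 9.30 in DBA/2J, and 9.61, 9.88 and 9.63 in C57BL/6J (-0.33 ± 0.11, adjusted p = 0.0476). Syt17 at 1433909_at read 9.05 and 8.68 in DBA/2J, and 9.03, 9.05 and 9.08 in C57BL/6J (-0.30 ± 0.10, adjusted p = 0.0464). Syngr3, a synaptogyrin of the vesicle membrane, read 9.29 and 9.20 in DBA/2J, and 9.26, 9.42 and 9.40 in C57BL/6J (-0.23 ± 0.07, adjusted p = 0.0358). The arrays overlapped for Syt17 and Syngr3, and for the other 9 of the 11 probe sets they did not. Of all 3260 probe sets called in this contrast, 94.1% did not overlap.

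**Figure D3:**
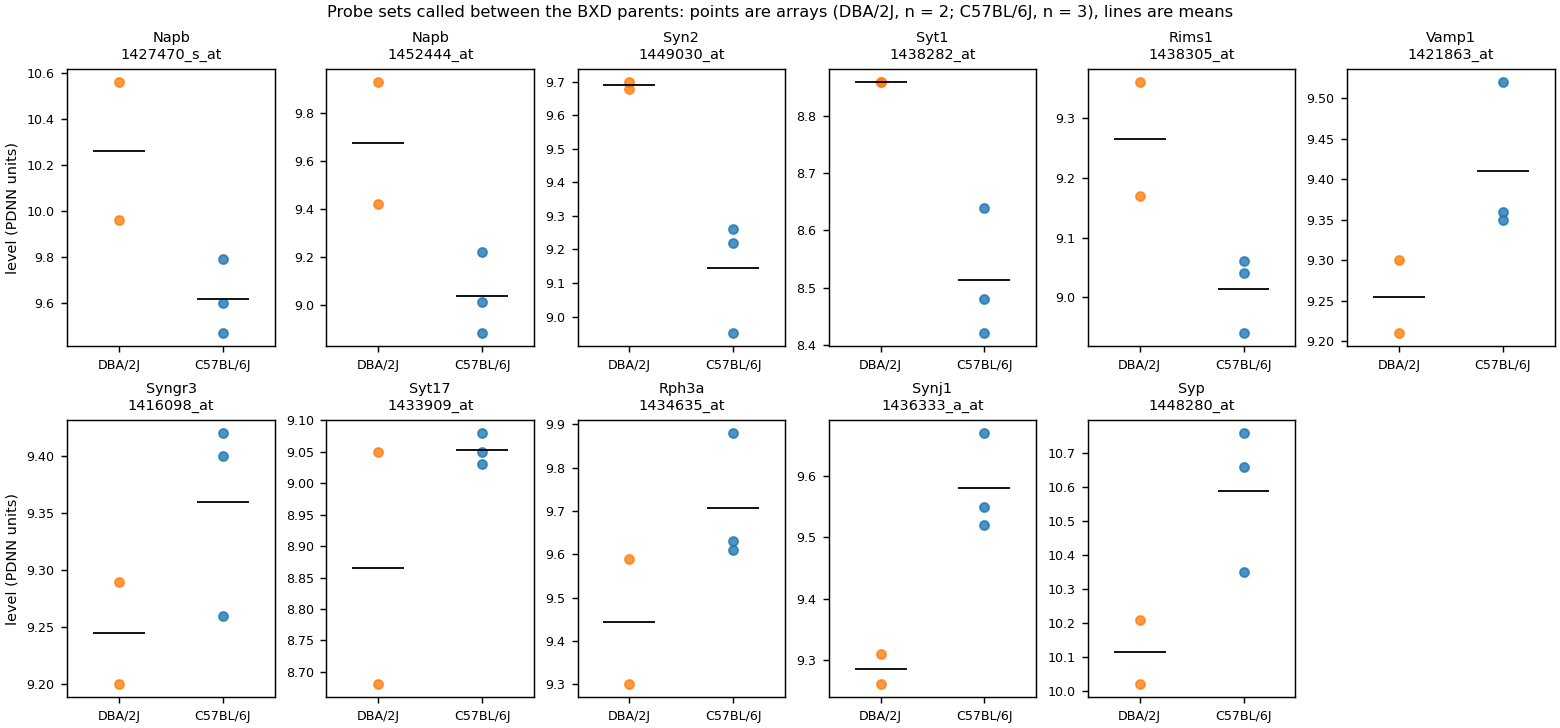
Levels (y axis, PDNN units, a scale for each panel) of the 11 probe sets called between the BXD parents, in the 2 DBA/2J arrays (left of each panel) and the 3 C57BL/6J arrays (right), with group means as lines. The first 5 panels are higher in DBA/2J and the last 6 lower, and only Syngr3 and Syt17 overlap.

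In the batch that held both strains, 1 array of each, all 11 differences had the same direction, as had 99.7% of all probe sets called, since these 2 arrays are among the 5 that chose them. The 2 DBA/2J arrays were of females and 2 of the 3 C57BL/6J arrays of males, so for these strains sex was adjusted through the other strains. The count rests on single arrays, with 3 calls without DBA/2J replicate 1, 4 without DBA/2J replicate 2, 7 without C57BL/6J replicate 1 and 2 without C57BL/6J replicate 2. It was 1, Syt1, without the batch term and 1 with the spread taken from inbred strains and F1 hybrids alone. Oligodendrocyte and myelin markers moved with this contrast: their mean level over 11 genes was 9.10 to 9.25 in DBA/2J and 9.43 to 9.96 in C57BL/6J, and 16 of their 29 probe sets were lower. The ACTB ratio was 1.30 and 1.28 in DBA/2J and 1.67, 1.14 and 1.68 in C57BL/6J. With this ratio as a covariate 10 were called, and the Napb differences were 0.57 and 0.55. The part of the myelin markers in the result was not tested.

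Of the 11 probe sets that separated the parents, 3 also had a BXD strain effect, those of Synj1, Syt17 and Vamp1. The same share over all probe sets called between the parents was not counted. The other 8 had intraclass correlations of 0 to 0.114 over the 68 BXD strains. For Syn2 at 1449030_at the BXD strain means ran from 8.98 through 9.72 to 10.06, and for Syt1 at 1438282_at from 8.37 through 8.67 to 8.82, with an intraclass correlation of 0 at both. For Napb at 1427470_s_at they ran from 9.71 through 10.17 to 10.42, also at 0. An estimate of 0 means that these strain means were spread no more than the arrays within strains.

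The BALB/c substrains differed from the C57BL/6 substrains at 8 of 115 member probe sets (6.96%), where 5.12% of all were called. They were higher in BALB at 6 (background 3.00%) and lower at 2 (background 2.12%), and the median difference was 0.0101 units over members and -0.0107 over all probe sets. The brightest probe set was called for 2 genes, Rab3b and Sv2a (background 5.23%). The other presynaptic genes had 4 of 210 probe sets higher and 5 lower.

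The largest called difference was that of Cplx2 at 1421477_at. It read 10.31, 10.15 and 10.62 in BALB/cJ and 10.53 in BALB/cByJ, and 9.52, 9.85 and 9.72 in C57BL/6J and 10.01 and 9.01 in C57BL/6ByJ (0.96 ± 0.19, limma's moderated test, adjusted p = 1.8e-04). All BALB arrays lay above all C57BL/6 arrays, and the call held under all 21 alternatives that gave it a value, with differences of 0.64 to 2.40 on the scale of each. The brightest Cplx2 probe set 1455672_s_at differed by 0.25 ± 0.09 (adjusted p = 0.0758).

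Rab3b ran the other way. It read 8.09, 8.23 and 8.30 in BALB/cJ and 8.33 in BALB/cByJ, and 8.50, 8.72 and 8.84 in C57BL/6J and 8.66 and 8.78 in C57BL/6ByJ (-0.46 ± 0.09, adjusted p = 7.2e-05). Rab3a at 1459980_x_at was lower as well, at 9.74 to 9.85 in BALB arrays and 9.93 to 10.10 in C57BL/6 arrays (-0.21 ± 0.04, adjusted p = 4.3e-04). Neither overlapped.

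Stxbp5 at 1430301_at was higher, at 8.99 to 9.39 in BALB arrays and 8.67 to 8.89 in C57BL/6 arrays (0.33 ± 0.07, adjusted p = 0.00113). Sypl, a synaptophysin-like protein, was higher at 1435082_at, at 8.15 to 8.32 in BALB and 7.92 to 8.11 in C57BL/6 (0.28 ± 0.06, adjusted p = 1.8e-04), and at 1422882_at (0.23 ± 0.06, adjusted p = 0.0108). None of these overlapped. Sv2a was higher, at 9.72 to 9.96 in BALB and 9.51 to 9.78 in C57BL/6 (0.27 ± 0.07, adjusted p = 0.0113), and so was Syt7 at 1441927_at, at 8.60 to 9.03 in BALB and 8.30 to 8.66 in C57BL/6 (0.29 ± 0.09, adjusted p = 0.0336). Arrays overlapped for these 2 probe sets alone. Of all probe sets called in this contrast 52% did not overlap. Within the 3 batches that held both groups, 8, 7 and 8 of the 8 differences had the fitted direction, the exception being Syt7 in 1 batch, where the shares over all called probe sets were 92.7%, 93.6% and 99.1%. Without C57BL/6ByJ replicate 2 the count was 5, and in RMA values, which held no usable C57BL/6J array, it was 1. The ACTB ratio had a median of 2.18 in BALB and 1.67 in C57BL/6 arrays, and with it as a covariate all 8 were called. Other cell type markers moved with this contrast: 4 of 15 microglia and 3 of 17 interneuron probe sets were lower in BALB, and 5 of 34 astrocyte, 4 of 31 thalamus, 1 of 19 choroid plexus and 1 of 29 myelin probe sets were higher. The median choroid plexus difference was 0.388 units. With the choroid plexus marker mean as a covariate 8 member probe sets were called, and with the thalamus marker mean 12. The part of the microglia, interneuron and astrocyte markers in the result was not tested.

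In the CXB panel 1 of these 8 probe sets, that of Rab3a, had a strain effect, and the same share over all probe sets called was not counted. That CXB call was lost in MAS5 values (0.000, adjusted p = 0.805), under quantile normalization (0.336, adjusted p = 0.204), with arrays rescaled (0.385, adjusted p = 0.132), without the batch term (0.485, adjusted p = 0.0522) and with the panel alone (0.256, adjusted p = 0.754), and the BALB call of Rab3a was lost in RMA values (-0.13, adjusted p = 0.937) and MAS5 values (-0.24, adjusted p = 0.351). For Cplx2 at 1421477_at the CXB strain means ran from 9.49 in CXB6 through 10.07 to 10.52 in CXB11, about as far apart as BALB/cByJ at 10.53 and C57BL/6ByJ at 9.51, with an intraclass correlation of 0.361 (adjusted p = 0.2). For Rab3b they ran from 8.26 through 8.58 to 8.69 (0.420, adjusted p = 0.11).

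Wild-derived strains differed from classical strains at 6 of 115 member probe sets (5.22%), where 3.90% of all were called, with strains as replicates and a single array each for CAST/EiJ and BALB/cByJ. They were lower at 5 (background 1.99%) and higher at 1 (background 1.92%), with a median difference of -0.024 over members and 0.021 over all probe sets. No brightest probe set was called by limma (background 3.78%), where 8 (18.2%, against 27% of all brightest probe sets) had an unadjusted p under 0.05, and the other presynaptic genes had 2 of 210 probe sets higher and 2 lower.

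Napb at 1423172_at separated the groups without overlap, as did 19.6% of all probe sets called in this contrast. Its strain means were 9.61 in CAST/EiJ, 9.68 in PWD/PhJ, 9.68 in PWK/PhJ and 9.58 in WSB/EiJ, and ranged from 9.74 through a median of 10.38 to 10.52 in the classical strains (-0.72 ± 0.09, SE, n = 4 and 13 strains, limma's moderated test, adjusted p = 9.1e-04). The lowest classical strain was NOD/LtJ, at 9.69 and 9.78 in its arrays. Napb was also lower at 1427470_s_at (-0.61 ± 0.16, adjusted p = 0.0426) and 1450888_at (-0.29 ± 0.06, adjusted p = 0.0205), and its brightest probe set 1423173_at differed by -0.18 ± 0.05 (adjusted p = 0.0524).

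Syt1 at 1438282_at averaged 7.71 in PWD/PhJ, 8.16 in PWK/PhJ, 8.42 in WSB/EiJ and 8.71 in CAST/EiJ, and 8.51 to 8.92 in classical strains (-0.51 ± 0.11, adjusted p = 0.0163). Its brightest probe set 1433884_at differed by -0.05 ± 0.07 (adjusted p = 0.697). Syt11 at 1456464_x_at averaged 8.64 in CAST/EiJ, 8.72 in PWD/PhJ, 8.68 in PWK/PhJ and 9.51 in WSB/EiJ, and 8.87 to 9.87 in classical strains (-0.68 ± 0.17, adjusted p = 0.033). Only Syn2 was higher, at the dim probe set 1440762_at, with 7.70 to 7.81 in wild-derived and 7.58 to 7.71 in classical strains (0.10 ± 0.03, adjusted p = 0.0478), and this call was lost in 11 of 15 alternatives, with adjusted p up to 0.575.

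**Figure D4:**
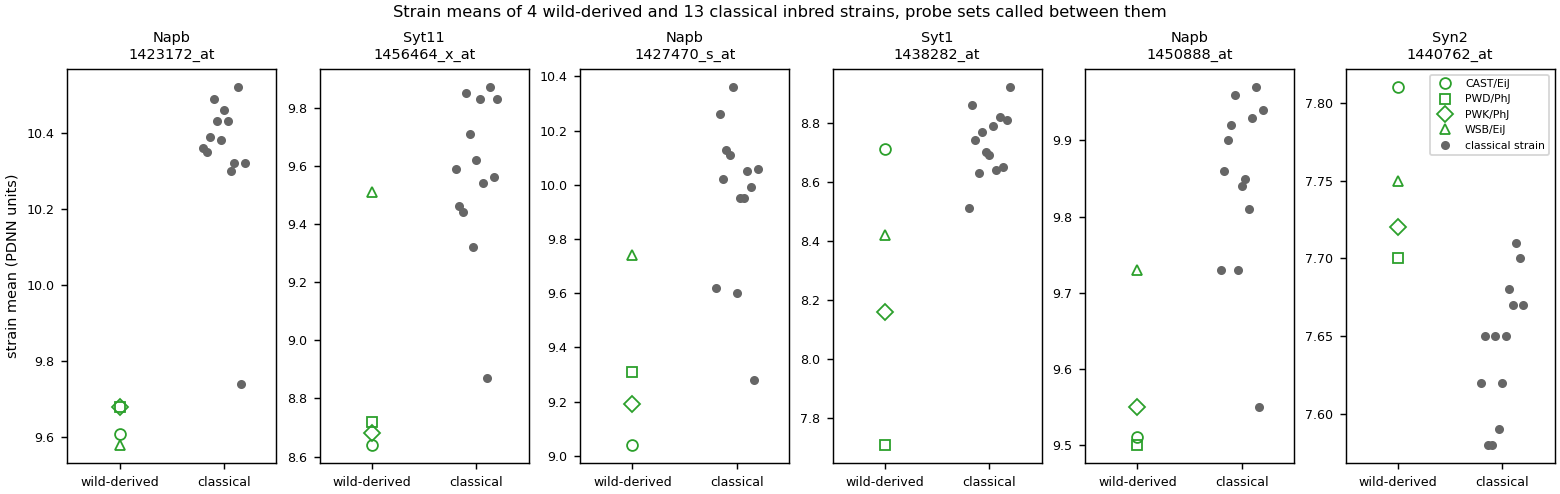
Strain means (y axis, PDNN units, a scale for each panel) of the 6 probe sets called between 4 wild-derived strains (left, a symbol for each strain) and 13 classical strains (right, spread sideways for legibility). Napb at 1423172_at does not overlap, and WSB/EiJ stands with the classical strains for Syt11.

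All 6 differences had the fitted direction within each of the 3 batches that held both groups, as had 99.4% to 100% of all probe sets called, whose values chose them. The count was 3 without CAST/EiJ, 1 without PWD/PhJ, 7 without PWK/PhJ and 11 without WSB/EiJ. The ACTB ratio had a median of 2.32 in wild-derived and 1.67 in classical arrays. With it as a covariate 11 member probe sets were called, and with the mean of the thalamus markers as a covariate 13. In RMA values 1 was called and in MAS5 values 2. Markers of dentate granule neurons had a mean of 8.11 to 8.38 in wild-derived and 8.25 to 8.64 in classical arrays, with 4 of 20 probe sets lower. Oligodendrocyte and myelin markers had a mean of 9.14 to 9.44 in wild-derived and 9.09 to 9.97 in classical arrays, with 2 of 29 lower and a median difference of -0.259. Medians were -0.248 for choroid plexus (1 of 19 lower), -0.153 for endothelium (2 of 13 lower) and -0.12 for astrocytes (2 of 34 lower). The part of dentate, myelin, endothelium and astrocyte markers in the result was not tested.

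Over the 6 comparisons of strains, 10 member genes had no called probe set. The share of all genes without a call was not counted, and Doc2a, Sv2c, Syt5 and Unc13a had a single probe set each. The 10 genes were the SNAREs Stx1a (syntaxin 1A) and Vamp2, the ATPase Nsf, Cplx1, the dynamin Dnm1, the calcium sensors Doc2a and Syt5, the priming factors Unc13a and Unc13b, and the glycoprotein Sv2c.

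Sex and age gave no call. No member probe set differed between males and females, where limma called 0.118% of all probe sets (0.0444% higher and 0.0733% lower in males) and 0.0934% of brightest probe sets. At an unadjusted p under 0.05 there were 8 (6.96%, against 4.15% of all probe sets), and the differences (male minus female) ran from -0.12 to 0.04 units, with the lowest p of 0.00158 for Syt17 (adjusted p = 0.677). Syn1 and Syp are on chromosome X, and differed by -0.03 ± 0.02 and -0.04 ± 0.03 units (adjusted p = 1 for each). Age within strains gave no call among members either, where 0.00222% of all probe sets were called, and 1 member (0.87%, against 2.55% of all) at an unadjusted p under 0.05. Slopes ran from -0.021 to 0.026 units per 10 days.

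The ACTB 3'/5' ratio moved with more member probe sets than any of the strain comparisons, of which the classical strains had the most (49). Within strains, 61 of 115 member probe sets (53.0%) had a slope on the log2 ratio, where 38.2% of all probe sets had one. They came from 38 of the 44 genes, where 52.5% of all genes had any called probe set. Of the 61, 28 had a positive slope (background 22.3%) and 33 a negative one (background 15.9%). The median slope was -0.00901 over members and -0.00505 over all probe sets. The other presynaptic genes had 132 of 210, 53 up and 79 down.

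The steepest slopes were negative and belonged to dimmer probe sets of core genes. Vamp2 at 1420833_at fell by 0.98 units per unit of the log2 ratio (SE 0.12, limma's moderated test, adjusted p = 3.1e-10), and at its brightest probe set by 0.14. Dnm1 at 1427754_a_at had a slope of -0.77, and -0.13 at its brightest. Cplx1 at 1417747_at had -0.66, while its 2 other probe sets had 0.07 and 0.12.

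Such opposite signs within a gene recurred. Napb had -0.55 and -0.53 at 1452444_at and 1427470_s_at, the probe sets called between the BXD parents, and 0.12 at 1423172_at. Syt11 had -0.48 at 1449264_at and 0.15 at 1456464_x_at. Stx1a had 0.23 at its brightest probe set and -0.32 at the other, Sypl 0.21 at its brightest and -0.19 at 1422879_at, and Syt17 0.16 and -0.20. Positions of the probe sets along the transcripts were not used here, so their part in these slopes was not tested.

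**Figure D5:**
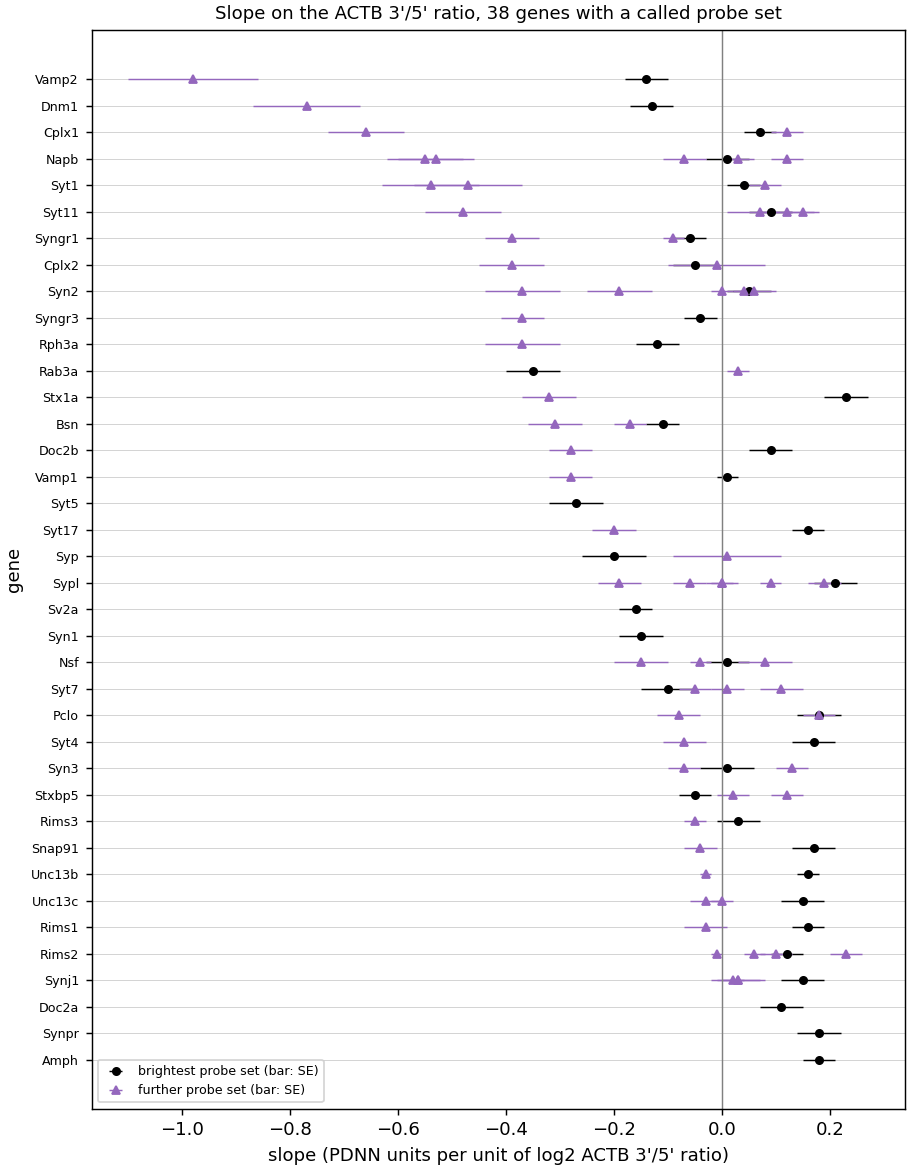
Slope on the log2 of the ACTB 3'/5' ratio (x axis, PDNN units per unit, bars are SE) for every probe set of the 38 genes with a called slope (y axis, steepest negative slope on top). Vamp2, Dnm1, Cplx1 and Napb have dimmer probe sets between -0.98 and -0.53 while their brightest stand between -0.14 and 0.07.

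Among brightest probe sets 24 had a slope (background 41.5%). It was positive for 15, namely Stx1a (0.23), Sypl (0.21), Amph, Pclo and Synpr (0.18 each), Snap91, the clathrin adaptor AP180, and Syt4 (0.17 each), Rims1, Syt17 and Unc13b (0.16 each), Synj1 and Unc13c (0.15 each), Rims2 (0.12), Doc2a (0.11) and Cplx1 (0.07). It was negative for 9, namely Rab3a (-0.35), Syt5 (-0.27), Syp (-0.20), Sv2a (-0.16), Syn1 (-0.15), Vamp2 (-0.14), Dnm1 (-0.13), Rph3a (-0.12) and Bsn (-0.11), bassoon of the active zone. For the further probe sets of Bsn the slopes were -0.31 and -0.17, in the same direction as the brightest.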

How the data were processed

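RNA from hippocampus pools was measured on 201 Affymetrix M430 2.0 arrays. The authors deposited PDNN scores per probe set, on a log-like scale, and the deposited RMA and MAS5 scores served as alternatives. Per the labels, values were set to mean 8 and SD 2 on each array, but deposited PDNN means were 8.06 to 8.10 and PDNN SDs 0.63 to 0.799. Of the RMA columns, 4 matched another array best and were left out, those of C57BL/6J replicates 1, 2 and 3 and of BXD14 replicate 2. Whether the PDNN columns of these 4 arrays carry the right labels was not tested. Control probe sets (64) were removed, and 9160 had no symbol and 932 several. The fit in limma 3.58.1 (R 4.3.3) held strain, sex and batch over 199 columns with 92 residual degrees of freedom; BXD9 replicate 2 was left out and the technical duplicate of B6D2F1 was averaged. Wild-derived and classical strains were compared over strain means. Adjustment was by Benjamini-Hochberg over 45037 probe sets at 0.05, and the steps were tested on simulated data. The brightest probe set of a gene had the highest mean over all arrays. Named were members with a called brightest probe set, and further probe sets that passed where it did not or that ran the other way. Members and lists were chosen with earlier results of these data known. The number of arrays limits the precision.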

Additional observations from a re-analysis of the deposited data

Results flagged for a closer look

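Of 22 groups of 4 to 10 values that were examined, 1 held a value far from the others. Among the 4 wild-derived strains, Syt11 at 1456464_x_at averaged 9.51 units in WSB/EiJ, where the next strain had 8.72 and the lowest 8.64, a gap of 0.916 of the whole range. The arrays of WSB/EiJ read 9.55 and 9.47. Without WSB/EiJ the difference between wild-derived and classical strains was -0.90 (adjusted p = 0.00205). It was -0.60 without CAST/EiJ (adjusted p = 0.118), -0.61 without PWD/PhJ (adjusted p = 0.148) and -0.62 without PWK/PhJ (adjusted p = 0.0566). The rule is set so that chance flags about 1 in 20 groups, a nominal rate that was not measured here.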

How the results depend on the processing

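The number of arrays and the spread between pools limit which strain differences could be seen, and single arrays decided several calls. In MAS5 values the called probe sets numbered 5 (BXD), 27 (classical), 5 (DBA/2J against C57BL/6J), 4 (BALB against C57BL/6) and 2 (wild-derived against classical). In RMA values the last 2 comparisons had 1 each, and DBA/2J against C57BL/6J had no RMA value. Brightest probe sets alone gave 6 (BXD), 2 (CXB), 23 (classical), 2 (DBA/2J), 2 (BALB), 0 (wild-derived) and 24 (ACTB ratio). Without the batch term DBA/2J had 1 and BALB 5, and with the spread of inbred strains and F1 hybrids alone DBA/2J had 1. For wild-derived strains the ACTB ratio as a covariate gave 11 and the thalamus marker mean 13. Without the arrays whose labelled RMA outlier share reached 0.1, CXB had 10 and classical strains 30. Settings chosen after seeing the data were panel-alone fits (CXB 2, classical 8), leaving out CXB2 (3) or BXD45 and BXD55 (15), leaving out the 7 arrays with disagreeing headers (14 for BXD, 6 for CXB, 47, 10, 8, 5 and 63 for the classical, DBA/2J, BALB, wild-derived and ACTB comparisons), and 4 residual components as covariates.

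The 4 components gave 91 (BXD), 69 (CXB), 96 (classical), 29 (DBA/2J), 34 (BALB), 12 (sex) and 7 (ACTB ratio). They were taken from residuals of the same fit, so by construction no strain, sex or batch estimate moved by more than 1.3e-13. The median residual SD was 0.0514 with them and 0.0782 without, and the strain and sex counts overstate what the arrays support. The components can also take up the ACTB slope, which is estimated from the same residuals, and its count was lower with them. They also turned the sign of 21 called ACTB slopes, to 0.06 (Cplx1), 0.12 (Vamp1), 0.13 and 0.17 (Syt1), 0.01 and 0.12 (Bsn), 0.09 (Nsf), -0.03 and -0.01 (Sypl), 0.02 (Syt17), -0.02 (Synpr), 0.03 (Dnm1), -0.06 (Syn3), -0.01 (Rims2), -0.02 (Doc2a), 0.01 (Stx1a), 0.03 and 0.06 (Syn2), 0.08 (Syngr1), -0.01 (Unc13c) and 0.04 (Rims3). No other alternative turned the sign of a called member.

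Leaving out 1 array or strain at a time gave 15 to 16 calls for BXD, 4 to 7 for CXB, 46 to 55 for classical strains, 2 to 10 for DBA/2J, 5 to 11 for BALB, 1 to 11 for wild-derived strains, 57 to 64 for the ACTB ratio and 0 for sex and for age. Counts over all probe sets moved too, at 3037 to 3207 (BXD), 1771 to 3428 (CXB), 11243 to 14051 (classical), 1424 to 3379 (DBA/2J), 1199 to 4573 (BALB), 245 to 3203 (wild-derived) and 16476 to 17475 (ACTB ratio). No paired analysis was possible because replicate numbers were given in accession order and pair no samples.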
